A study of Mus musculus with 16 samples.

Results

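Transcripts of the adult haemoglobin chains and of the red cell enzyme Alas2 were followed across 16 RNA-seq libraries of whole mouse kidney. The group holds 5 genes of the 23935 symbols in the deposited table: Hba-a1, Hba-a2, Hbb-bs, Hbb-bt and Alas2. They were chosen by name, with their measured fall after cisplatin and their higher levels with the precursors already known, so their values in those comparisons are given as a description, with no test. The mice were wild type (WT), and the libraries form 4 groups of 4. The Cisplatin with NMN group received nicotinamide mononucleotide before cisplatin, the Cisplatin with NR group received nicotinamide riboside before cisplatin, the Cisplatin group received cisplatin, and the PBS group received buffered saline. Kidneys were taken 3 days after cisplatin. The sources used here give no dose, sex, age or strain, and do not say whether blood was flushed from the kidneys. Since no label states that libraries of a group are different animals, p-values here reflect only the spread between these samples, in part perhaps technical. Below, libraries of the Cisplatin with NMN and Cisplatin with NR groups are called NMN and NR libraries.

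Haemoglobin is the oxygen carrier of red cells, built of paired alpha and beta globin chains that each hold a haem. In adult mice the alpha chains come from Hba-a1 and Hba-a2 and the beta chains from Hbb-bs and Hbb-bt. Alas2 is the form of aminolevulinate synthase, the first enzyme of haem synthesis, that developing red cells use, while other cells use Alas1. Red cells of mammals lose their nucleus, and young ones, the reticulocytes, still carry globin and Alas2 mRNA into the blood. The kidney is rich in blood vessels and is the main adult source of erythropoietin, the hormone that drives red cell production in the bone marrow. Cisplatin is a platinum compound used against tumours that damages DNA and is toxic to kidney tubules, and NMN and NR are precursors of the cofactor NAD.

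The globin genes lie in clusters of near copies, which bears on how their values can be read. In GRCm38.p6, Hba-a1 is at chr11:32283672-32284486 and Hba-a2 at chr11:32296492-32297310, both on the plus strand with 12005 bases between them. Hbb-bt is at chr7:103812524-103813923 and Hbb-bs at chr7:103826523-103827928, both on the minus strand with 12599 bases between them. Alas2 is at chrX:150547417-150570622 on the plus strand. The coding sequences of Hba-a1 and Hba-a2, 429 bases each, differ at 1 base, and those of Hbb-bs and Hbb-bt, 444 bases each, also differ at 1 base. Hba-a1 and Hbb-bs share 63.5% of their aligned coding bases. Of the 100-base windows of the Hba-a1 transcript, 56.5% occur whole in Hba-a2, and 62.6% of those of Hbb-bs occur whole in Hbb-bt. The split of reads within each pair therefore rests on the unlike stretches and on the counting rule, which the sources used here do not give.

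Promoters are shown because the 5 genes moved together, and because 4 of them, in pairs of near copies, share exact motifs that Alas2 lacks in this window. The 210 bases before the RefSeq start (GRCm38.p6) are printed for a gene of the alpha pair, both beta genes and Alas2. Capitals mark GATAAG, a form of the motif bound by GATA factors, CACCC, a motif of the red cell factor KLF1, CCAAT, a motif of NF-Y, and ATATAA, a form of the TATA box. Matches on the other strand appear as ATTGG and GGGTG. The windows are chr11:32283462-32283671 on the plus strand, chr7:103827929-103828138 and chr7:103813924-103814133 on the minus strand, and chrX:150547207-150547416 on the plus strand, in the order printed.
Hba-a1: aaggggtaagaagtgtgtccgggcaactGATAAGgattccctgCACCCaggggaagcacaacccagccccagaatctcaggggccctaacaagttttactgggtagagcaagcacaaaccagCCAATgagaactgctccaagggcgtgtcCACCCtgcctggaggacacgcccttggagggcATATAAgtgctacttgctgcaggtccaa
Hbb-bs: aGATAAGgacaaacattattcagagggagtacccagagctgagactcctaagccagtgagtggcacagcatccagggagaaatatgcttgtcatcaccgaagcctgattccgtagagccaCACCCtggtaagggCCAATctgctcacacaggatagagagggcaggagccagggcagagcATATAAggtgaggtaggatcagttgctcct
Hbb-bt: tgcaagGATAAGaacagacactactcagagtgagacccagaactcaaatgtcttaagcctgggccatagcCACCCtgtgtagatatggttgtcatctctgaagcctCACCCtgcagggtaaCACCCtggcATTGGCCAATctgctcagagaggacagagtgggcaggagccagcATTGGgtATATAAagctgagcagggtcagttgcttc
Alas2: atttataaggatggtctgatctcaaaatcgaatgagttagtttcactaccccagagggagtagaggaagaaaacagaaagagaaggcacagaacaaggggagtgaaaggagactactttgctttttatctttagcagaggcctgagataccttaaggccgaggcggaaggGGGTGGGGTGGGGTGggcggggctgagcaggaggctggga
The Hba-a2 window holds the same motifs as that of Hba-a1, each 3 bases farther from the annotated start. Counting back from the start, GATAAG began at position -182 in Hba-a1, -209 in Hbb-bs and -204 in Hbb-bt, and ATATAA began at -28, -30 and -29. Both strands were searched over 250 bases before the start, with the GRCm38.p6 windows of 27018 genes for comparison. GATAAG occurred in 4 of the 5 genes and in 6.60% of all windows, CACCC in 5 of 5 and in 51.3%, CCAAT in 4 of 5 and in 34.5%, and ATATAA in 4 of 5 and in 9.51%. All these motifs occurred together in the 4 globin genes and in 36 windows in all, 0.133% of those searched. The globin matches are not independent of each other. Aligned with a shift of 3 bases, the 250 bases before the start had 0 differences between Hba-a1 and Hba-a2 where the windows overlapped. Those of Hbb-bs and Hbb-bt had 73.25% identity once aligned. Alas2 held CACCC on the other strand at 3 places and none of the other motifs in these exact letters. Other forms of the GATA motif and the TATA box were not counted. A match is a description of the letters, not a bound site.

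Values are deposited TPM, transcript abundances scaled for gene length and to a common total per library. Read depth cannot be had from them, so the depth is unknown and no counting interval is given. Library sums of the listed TPM ran from 860428 to 903678, with 11535 to 12549 genes at 1 TPM or more. Messages of the 13 mitochondrial genes took 26.0% ± 2.62 of this sum in NMN libraries, 26.4% ± 3.6 in NR libraries, 16.6% ± 0.843 in Cisplatin libraries and 28.6% ± 4.18 in PBS libraries (SD, n = 4 each). NR libraries 3 and 4 stood apart in haptoglobin, Hp, at 64.3 and 41.0 TPM, against 1.40 and 5.62 TPM in NR libraries 1 and 2.

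Alpha globin transcripts, among the most abundant in PBS kidneys, read at most 13.5 TPM with Cisplatin. Hba-a1 read 10.3, 3.86, 7.78 and 6.95 TPM in the Cisplatin libraries, against 446.9, 944.9, 819.7 and 595.1 TPM in the PBS libraries. Hba-a2 read 8.28, 4.61 and 13.5 TPM in Cisplatin libraries 1 to 3 and was listed at 0 in library 4, against 713, 1456, 1449 and 1019.8 TPM in the PBS libraries. The groups did not overlap for either gene: the highest Cisplatin library stood far below the lowest PBS library. With a precursor, Hba-a1 read 321, 761, 472 and 492 TPM in the NMN libraries, and 321, 652, 486 and 438 TPM in the NR libraries. Hba-a2 read 496.6, 1049, 724 and 747.5 TPM in the NMN libraries, and 476.9, 905, 765 and 702 TPM in the NR libraries. Every NMN and NR library was above every Cisplatin library. NMN library 1 and NR libraries 1 and 4 read below the lowest PBS library for both genes, and the others lay within the PBS span.

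Beta globin transcripts had the same pattern. Hbb-bs, the more abundant beta gene, read 2.72, 1.62, 11.1 and 1.25 TPM in the Cisplatin libraries, against 634, 1274, 1089.89 and 944 TPM in the PBS libraries. It read 488, 944, 684 and 736 TPM in the NMN libraries, and 420.5, 926, 751 and 622 TPM in the NR libraries. Cisplatin library 3 was the highest of its group for Hbb-bs and also for Hba-a2, and was still far below any PBS library. Hbb-bt, the minor beta gene, read 0.79 and 0.97 TPM in Cisplatin libraries 1 and 3 and was listed at 0 in libraries 2 and 4, against 77.0, 133, 137 and 116 TPM in the PBS libraries. It read 43.5, 119, 85.0 and 98.5 TPM in the NMN libraries, and 45.4, 110.7, 102.9 and 72.0 TPM in the NR libraries. Here too no Cisplatin library overlapped any other group.

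Alas2 was scarce in every group. It read 0.24 and 0.55 TPM in Cisplatin libraries 1 and 3 and was listed at 0 in libraries 2 and 4, against 4.74, 12.1, 6.53 and 4.24 TPM in the PBS libraries. It read 7.73, 8.82, 4.98 and 6.07 TPM in the NMN libraries, and 3.98, 8.76, 4.51 and 3.4 TPM in the NR libraries. The NMN and NR libraries lay mostly within the PBS span, and the Cisplatin libraries overlapped none of the others.

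**Figure D1:**
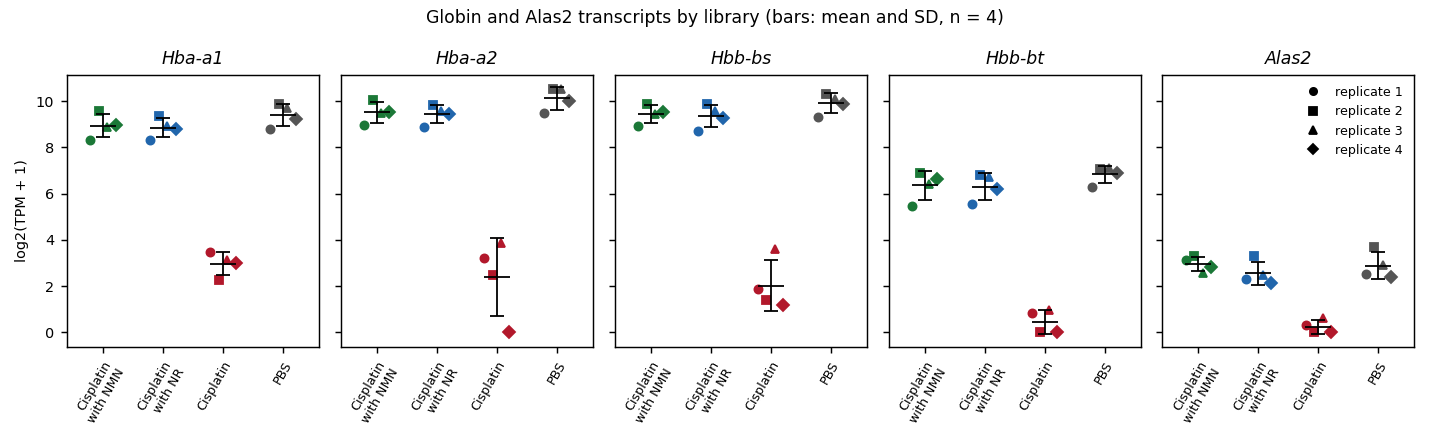
Level of each transcript in every library, as log2(TPM + 1), by group. Points are libraries with a symbol per replicate number, and black bars give the mean and SD (n = 4). The Cisplatin libraries lie below all others in each panel, with the Hba-a2 value of library 4 and the Hbb-bt and Alas2 values of libraries 2 and 4 listed at 0.

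Hba-a2 averaged 6.60 ± 5.72 TPM with Cisplatin and 1159.6 ± 361 TPM with PBS, and Hba-a1 7.21 ± 2.64 TPM with Cisplatin and 702 ± 223 TPM with PBS (SD, n = 4 each). Hbb-bs averaged 4.17 ± 4.66 TPM with Cisplatin and 985 ± 270 TPM with PBS, and Hbb-bt 0.440 ± 0.513 TPM with Cisplatin and 116 ± 27.3 TPM with PBS. Alas2 averaged 0.198 ± 0.261 TPM with Cisplatin and 6.90 ± 3.59 TPM with PBS. The PBS mean was 263 times the Cisplatin mean for Hbb-bt, 236 times for Hbb-bs, 176 times for Hba-a2, 97.3 times for Hba-a1 and 34.9 times for Alas2. Among the 8462 genes with a PBS mean of at least 5 TPM, ordered by the ratio of the Cisplatin to the PBS mean from the lowest, Hbb-bt held rank 2, Hbb-bs rank 3, Hba-a2 rank 6, Hba-a1 rank 12 and Alas2 rank 35. In a bulk sample, fewer red cells and less of these mRNAs per red cell cannot be told apart.

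On the log2(TPM + 1) scale, which understates the change of low values, the difference of Cisplatin from PBS was -7.89 for Hbb-bs (SE 0.43), -7.73 for Hba-a2 (SE 0.62), -6.42 for Hba-a1 (SE 0.30), -6.38 for Hbb-bt (SE 0.33) and -2.65 for Alas2 (SE 0.29). NMN libraries differed from Cisplatin libraries by 7.43, 7.12, 5.96, 5.91 and 2.72 in that order of genes. NR libraries differed from Cisplatin libraries by 7.34, 7.05, 5.87, 5.85 and 2.31. These comparisons share the Cisplatin libraries and were used to choose the genes, so no p is given. The groups did not overlap for 5 of 5 genes in each, beside 15.6% of the 12960 genes tested that were lower with Cisplatin than with PBS without overlap, 13.4% that were higher with NMN than with Cisplatin, and 12.7% that were higher with NR than with Cisplatin. Over all genes tested, 59.4% passed an adjusted p of 0.05 in limma for Cisplatin against PBS, 49.1% for NMN against Cisplatin and 46.6% for NR against Cisplatin. The median of all genes moved by 0.27, -0.23 and -0.20 in these comparisons (log2), small beside the changes of the 5 genes.

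The 4 globin genes together took 0.234% of the listed TPM in NMN libraries, 0.221% in NR libraries, 0.00206% in Cisplatin libraries and 0.338% in PBS libraries. Summed, they reached 18.4 ± 11.7 TPM in Cisplatin libraries, between 8.2 and 33.4, against 2962 ± 870 TPM in PBS libraries. In PBS libraries Hba-a2 ranked between 54 and 122 among all symbols and Hbb-bs between 65 and 142, while Alas2 ranked between 5730 and 8846. In Cisplatin libraries Hba-a2 ranked between 5697 and 14924 and Hbb-bs between 6354 and 11836.

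The proportions among the globin genes were nearly constant wherever the genes were abundant. The order Hba-a2, Hbb-bs, Hba-a1, Hbb-bt, Alas2, from the highest TPM, held in 4 of 4 NMN, 3 of 4 NR and 4 of 4 PBS libraries and in 1 of 4 Cisplatin libraries. Neighbours in this order were not all apart: the spans of Hba-a2 and Hbb-bs overlapped in all 4 groups, as did those of Hbb-bs and Hba-a1. Hba-a1 and Hbb-bt, and Hbb-bt and Alas2, did not overlap in the NMN, NR and PBS groups. Alpha transcripts made up 61.1% ± 1.38 of globin TPM in NMN libraries, 61.2% ± 1.75 in NR libraries and 62.6% ± 1.90 in PBS libraries. Hba-a1 made up 40.1% ± 1.30 of alpha TPM in NMN libraries, 39.8% ± 1.56 in NR libraries and 37.7% ± 1.48 in PBS libraries. Hbb-bt made up 10.6% ± 1.62 of beta TPM in NMN libraries, 10.7% ± 0.977 in NR libraries and 10.6% ± 0.791 in PBS libraries (SD, n = 4 each).

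In Cisplatin libraries these proportions scattered, at levels of a few TPM. The alpha share was 84.1, 83.9, 63.8 and 84.8% in Cisplatin libraries 1 to 4, above the highest PBS library, 64.9%, in 3 of 4. Library 3, with the most globin TPM of its group, was the one with a share near that of PBS. The Hba-a1 share of alpha ran from 36.5 to 100% and the Hbb-bt share of beta from 0 to 22.5%. Per 1000 TPM of globin, Alas2 had 3.56 ± 1.46 TPM in NMN libraries, 2.63 ± 0.745 in NR libraries and 2.29 ± 0.710 in PBS libraries, and ran from 0 to 16.5 in Cisplatin libraries.

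**Figure D2:**
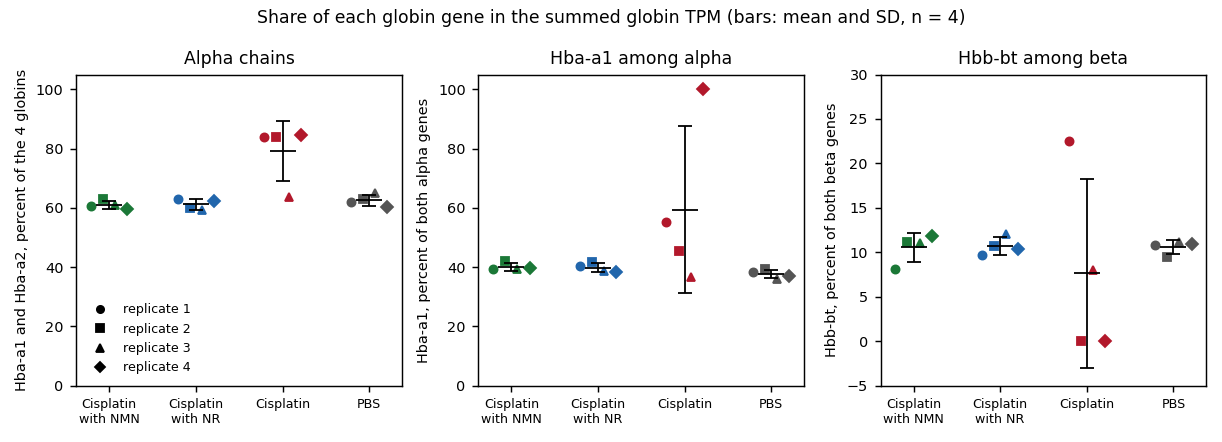
Share of the alpha genes in all globin TPM, of Hba-a1 in alpha TPM and of Hbb-bt in beta TPM, in percent, by library and group. Points are libraries and black bars give the mean and SD (n = 4). The NMN, NR and PBS libraries form narrow bands, near 61.1% with NMN, 61.2% with NR and 62.6% with PBS for alpha, and the Cisplatin libraries scatter, with the Hba-a1 share reaching 100% where Hba-a2 was listed at 0.

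Levels in kidneys given a precursor were also tested against PBS. Neither contrast with PBS was itself used to choose the genes. Each is, however, the sum of contrasts that were, Cisplatin against PBS and precursor against Cisplatin, in the same libraries. The tests are thus not independent of the choice. NMN means were 72.9% of the PBS mean for Hba-a1, 65.0% for Hba-a2, 72.4% for Hbb-bs, 74.8% for Hbb-bt and 100% for Alas2. NR means were 67.6, 61.4, 69.0, 71.5 and 74.8% of PBS in the same order of genes. Hba-a2 averaged 754 ± 227 TPM in NMN libraries and 712 ± 178 TPM in NR libraries, against 1159.6 ± 361 TPM in PBS libraries. Hbb-bs averaged 713 ± 187 TPM in NMN libraries and 680.0 ± 213 TPM in NR libraries, against 985 ± 270 TPM in PBS libraries. These means stood below the PBS means by more than the SD of either group, while the libraries overlapped. Hba-a1 averaged 512 ± 183 TPM with NMN and 474 ± 137 TPM with NR, Hbb-bt 86.5 ± 31.9 TPM with NMN and 82.7 ± 29.99 TPM with NR, and Alas2 6.90 ± 1.71 TPM with NMN and 5.16 ± 2.44 TPM with NR. The NMN, NR and PBS libraries overlapped for all 5 genes. By replicate number, every NMN and NR library read below the PBS library of its number for each globin gene. The numbers were not taken as pairs.

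None of the 5 genes passed the threshold against PBS. In NMN against PBS the log2 difference was -0.46 for Hba-a1 (95% interval -1.09 to 0.17, adjusted p = 0.498 in limma over all genes tested), -0.61 for Hba-a2 (-1.95 to 0.73, adjusted p = 0.712), -0.46 for Hbb-bs (-1.38 to 0.47, adjusted p = 0.683) and -0.47 for Hbb-bt (-1.17 to 0.23, adjusted p = 0.545). Alas2 differed by 0.07 (-0.53 to 0.68, adjusted p = 0.944). In NR against PBS the differences were -0.55 for Hba-a1 (-1.18 to 0.08, adjusted p = 0.301), -0.68 for Hba-a2 (-2.02 to 0.66, adjusted p = 0.597), -0.55 for Hbb-bs (-1.47 to 0.38, adjusted p = 0.521), -0.53 for Hbb-bt (-1.22 to 0.17, adjusted p = 0.385) and -0.33 for Alas2 (-0.94 to 0.27, adjusted p = 0.563). The intervals and p-values use a spread pooled over all 4 groups, so the Cisplatin libraries, outside these contrasts, add to it. Hba-a2 read from 0 to 13.5 TPM in those libraries. Within the NMN, NR and PBS groups it differed only 2.11-, 1.90- and 2.04-fold. The intervals for Hba-a2 are the widest, in part for that reason, and their lower ends allow a level well under that of PBS. Of all genes tested, 6.0% were called for NMN against PBS and 10% for NR against PBS. Both contrasts share the PBS libraries.

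**Figure D3:**
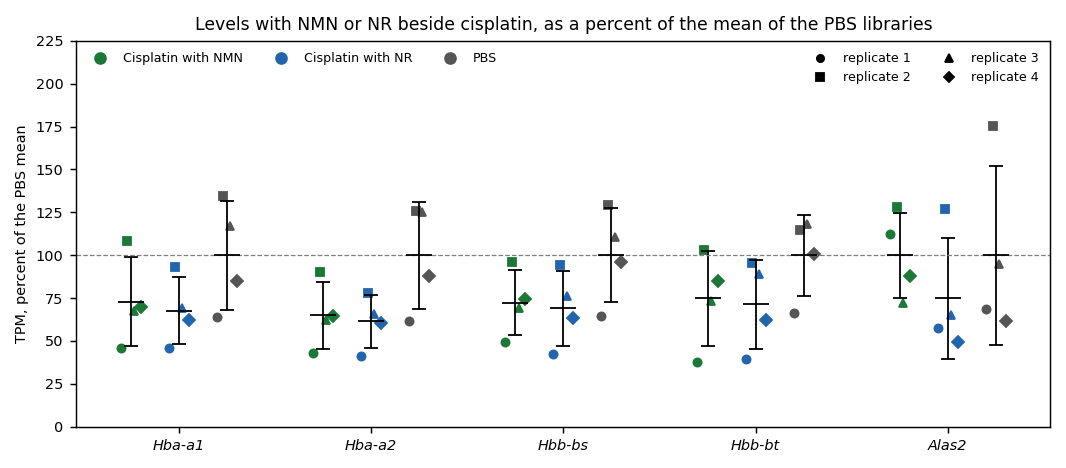
TPM of each transcript as a percent of the mean of the PBS libraries, in NMN, NR and PBS libraries. Points are libraries with a symbol per replicate number, and black bars give the mean and SD (n = 4). Globin means lie between 61.4 and 74.8% of PBS with a precursor, with libraries that overlap those of PBS, and library 2 is the highest of its group in most columns.

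NMN and NR libraries could not be told apart in these transcripts. The log2 difference of NMN from NR was 0.09 for Hba-a1 (95% interval -0.54 to 0.72), 0.07 for Hba-a2 (-1.27 to 1.41), 0.09 for Hbb-bs (-0.84 to 1.01), 0.06 for Hbb-bt (-0.64 to 0.75) and 0.41 for Alas2 (-0.20 to 1.01). The adjusted p in limma was 1 for all 5. In that comparison 0 of the genes tested were called (0%), and 370 had an unadjusted p under 0.05. The intervals again use the spread pooled over all groups, the Cisplatin libraries included. This contrast is the difference between contrasts that were known when the genes were chosen. No alternative tried called any of the 5 genes, with adjusted p between 0.999 and 1.

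The 5 genes were set beside the other genes with at least 5 TPM in PBS libraries whose Cisplatin mean was at most 5% of the PBS mean, 64 in number and chosen on the same fall. Their median level was 74.6% of the PBS mean in NMN libraries, with the 10th and 90th percentiles at 62.5 and 83.7%, and 66.5% in NR libraries, with 57.7 and 87.3%. The 4 globin genes lay between these percentiles in both groups. Alas2 lay above them in NMN libraries, at 100%, and between them in NR libraries.

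Within the 3 groups where they were abundant, the globin genes varied together from library to library. Between the lowest and the highest library of a group, Hba-a1 differed 2.37-fold with NMN, 2.03-fold with NR and 2.11-fold with PBS. Library 2 was the highest and library 1 the lowest of the NMN, the NR and the PBS group for Hba-a1, Hba-a2 and Hbb-bs. Hbb-bt followed, except that its highest PBS library was 3. Over these 12 libraries, the deviations from the group means correlated between globin genes at r from 0.909 to 0.984, and those of Alas2 with the globin genes at r from 0.385 to 0.656. The points share their libraries and the TPM scaling, and near-identical copies can share reads.

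Endothelial transcripts and most markers of kidney cells moved in the same direction as the globin genes. These and all lists below were drawn up with earlier results of these data known. The p-values of list genes may thus not be independent of that knowledge. Of 14 endothelial marker genes, none of which were at 0 in any group, 11 fell with Cisplatin against PBS and 11 were higher both with NMN and with NR than with Cisplatin, while 0 of 14 were called for NMN or NR against PBS. Of all genes tested, 18.6% fell with Cisplatin, 15.1% were higher with NMN than with Cisplatin and 14.4% were higher with NR. In either direction, 6.0% of all genes tested were called for NMN against PBS and 10% for NR against PBS. With median-of-ratios scaling 12 endothelial genes fell, beside 28.5% of all genes. Plvap, a protein of the diaphragms of fenestrated capillaries, fell by 2.84 on the log2 scale (SE 0.31, limma adjusted p = 5.23e-07), and Kdr, the main VEGF receptor, fell by 1.76 (SE 0.23, adjusted p = 3.07e-06). The list summed to between 125 and 230.05 TPM in NMN libraries, 155 and 242 in NR libraries, 50.3 and 128 in Cisplatin libraries, and 153 and 290.3 in PBS libraries. Library 2 was the highest for this sum in the NMN, NR and PBS groups, as for the summed globins, and library 1 the lowest in NMN and PBS. In the Cisplatin group, library 1 was the highest for the endothelial sum and library 3 for the globins. The mitochondrial share was highest in library 1 of the NMN, NR and PBS groups, at 28.4, 30.3 and 34.0%. The endothelial sum changed far less than the globin sum between Cisplatin and PBS libraries.

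Of 8 markers of tubule cells and podocytes, none at 0 in any group, 6 fell and 1 rose with Cisplatin, and 5 were higher and 1 lower than with Cisplatin both with NMN and with NR. Slc34a1, which takes up phosphate in proximal tubules, fell by 5.46 on the log2 scale (SE 0.11, limma adjusted p = 9.06e-17), Slc12a3, the salt transporter of the distal convoluted tubule, by 4.68 (SE 0.26, adjusted p = 1.04e-10) and Lrp2, megalin, by 2.81 (SE 0.14, adjusted p = 9.59e-12). Aqp2, the water channel of the collecting duct, rose by 1.19 (SE 0.14, adjusted p = 8.84e-07). Slc34a1 was also called against PBS, lower by 0.44 with NMN (adjusted p = 0.0129) and by 0.57 with NR (adjusted p = 0.00118), as was Lrp2 with NR (adjusted p = 0.0449). Of all genes tested, 0.116% were lower than PBS with NMN and 1.21% with NR. The list summed to between 3121 and 4232 TPM in NMN libraries, 2866 and 3490.4 in NR libraries, 729.8 and 1176 in Cisplatin libraries, and 4139.8 and 5062 in PBS libraries. The part of the endothelial, kidney and mitochondrial levels in the globin values was not tested.

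**Figure D4:**
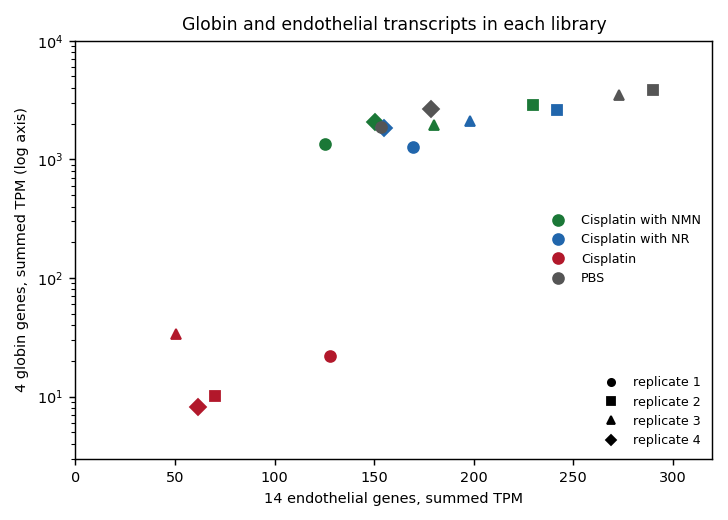
Summed TPM of the 4 globin genes, on a log axis, against the summed TPM of the 14 endothelial genes, for each library, with a colour per group and a symbol per replicate number. The Cisplatin libraries lie between 8.2 and 33.4 TPM of globin. Cisplatin library 1 has an endothelial sum near that of NMN library 1 and a far lower globin sum.

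Other genes typical of red cells and their precursors were scarce in every group. Of a list of 20 such genes 19 were in the table, 9 of these stayed under 1 TPM in all 16 libraries, and 6 were tested. Apart from Slc4a1, none exceeded 4.21 TPM, the highest value of Klf1, in any library. Rhd was listed at 0 in every library, and Rhag, Trim58 and Gata1, the factor that drives red cell development, read at most 0.11 TPM in any library. Their sum over the 19 genes ran from 13.6 to 16.3 TPM with NMN, 11.35 to 18.4 with NR, 4.34 to 13.3 with Cisplatin and 11.3 to 25.6 with PBS. The sums with Cisplatin and with PBS differed mainly through Slc4a1. It averaged 0.718 TPM of a mean sum of 9.29 TPM with Cisplatin and 8.33 TPM of 16.7 TPM with PBS. Of the 6 tested, 1 fell with Cisplatin and 0 rose, beside 18.6% and 40.7% of all genes tested. A fall of 1 in 6 is near the share of all genes. The median change was -0.15 beside 0.27 for all genes.

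The gene that fell was Slc4a1. It encodes the anion exchanger of the red cell membrane, which acid-secreting cells of the collecting duct also use. It read 0.57, 1.42, 0.48 and 0.40 TPM in the Cisplatin libraries, against 5.97, 4.93, 5.42 and 17.0 TPM in the PBS libraries, and fell by 2.31 on the log2 scale (SE 0.34, limma adjusted p = 1.35e-05). It was higher with NMN than with Cisplatin by 2.23 (SE 0.34, adjusted p = 3.48e-05) and with NR by 2.22 (SE 0.34, adjusted p = 4.28e-05), and was not called against PBS. Its libraries ran differently from the globins: in the NMN and NR groups library 2, the highest for globins, was the lowest for Slc4a1, at 4.09 and 3.81 TPM. Klf1, a factor that activates beta globin, averaged 2.52 ± 0.678 TPM with NMN, 2.805 ± 1.00 with NR, 1.5 ± 0.455 with Cisplatin and 2.475 ± 0.859 with PBS. It was called for NR against Cisplatin (log2 0.59, SE 0.23, adjusted p = 0.0436), and not for Cisplatin against PBS (log2 -0.46, SE 0.23, adjusted p = 0.0971). With a minimum of 5 TPM, with no minimum, with only the groups compared, or without NR libraries 3 and 4, 1 red cell gene in place of 2 was called for NR against Cisplatin. The same held in 9 of the 16 fits with a library left out, namely NMN library 1 or 3, NR library 2, 3 or 4, Cisplatin library 1, 2 or 3, or PBS library 3. With a minimum of 5 TPM the drop was fixed in advance, since Klf1 read at most 4.21 TPM and did not enter the test.

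Genes that late red cells share with other tissues did not move as a group. Of 18 tested, 6 rose and 4 fell with Cisplatin, with a median change of 0.03 beside 0.27 for all genes. Of all genes tested, 40.7% rose and 18.6% fell. With median-of-ratios scaling 5 of the 18 rose and 9 fell, beside 29.4% and 28.5% of all genes. Isg20, an interferon-induced exonuclease, rose by 4.19 (SE 0.27, limma adjusted p = 3.60e-10), and Cat, catalase, fell by 1.86 (SE 0.13, adjusted p = 6.62e-10), as did Dmtn, dematin, by 1.44 (SE 0.12, adjusted p = 1.31e-08). With NMN, 3 of these were higher and 5 lower than with Cisplatin, and the same counts held with NR, beside 15.1% and 34.0% of all genes with NMN and 14.4% and 32.2% with NR. With median-of-ratios scaling these counts were 6 and 3 with NMN and 5 and 3 with NR. Against PBS, Isg20 and Blvrb were higher with either precursor.

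The enzymes of haem synthesis that all cells use changed less on the log2 scale than Alas2, though some of them fell. Alas1, the counterpart of Alas2 in other cells, averaged 174 ± 21.0 TPM with NMN, 185 ± 25.4 with NR, 180.4 ± 43.0 with Cisplatin and 186 ± 37.8 with PBS, a log2 difference of Cisplatin from PBS of -0.05 (SE 0.17, limma adjusted p = 0.806). Of 7 haem synthesis genes, 3 fell and 0 rose with Cisplatin, beside 18.6% and 40.7% of all genes tested. With median-of-ratios scaling 5 of the 7 fell, beside 3690 of the 12960 genes tested. Cpox fell by 1.01 (SE 0.20, limma adjusted p = 0.000245), Uros by 0.84 (SE 0.14, adjusted p = 4.99e-05) and Ppox by 0.59 (SE 0.19, adjusted p = 0.0128), all enzymes of later steps. Cpox and Uros were higher with NMN and with NR than with Cisplatin. For either precursor against PBS, 0 of 7 genes were called, beside 6.0% of all genes tested with NMN and 10% with NR.

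Of the other globins, 9 were in the table. The embryonic genes Hba-x and Hbb-y were above 0 in 2 libraries each, at up to 0.56 and 0.64 TPM, and Hbb-bh1 was listed at 0 in every library. Mb read 1.81 and 1.08 TPM in Cisplatin libraries 1 and 2, and Hbq1b 1.78 TPM in Cisplatin library 4. Both were listed at 0 in all other libraries. Cygb, cytoglobin, a globin of fibroblast-like cells and the 1 gene of this list that was tested, averaged 4.805 ± 1.66 TPM with NMN, 5.37 ± 1.03 with NR, 1.82 ± 1.44 with Cisplatin and 5.365 ± 2.17 with PBS. It fell by 1.23 with Cisplatin (SE 0.31, limma adjusted p = 0.00254).

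Most genes that clear haemoglobin and haem were higher with Cisplatin than with PBS. Of 10 tested, 7 rose and 0 fell with Cisplatin, beside 40.7% and 18.6% of all genes tested, and with median-of-ratios scaling 6 rose and 1 fell, beside 29.4% and 28.5%. Hmox1, haem oxygenase, which breaks down haem, averaged 57.5 ± 13.7 TPM with NMN, 61.1 ± 5.14 with NR, 181 ± 18.0 with Cisplatin and 22.5 ± 2.01 with PBS, and rose by 2.95 with Cisplatin (SE 0.14, limma adjusted p = 6.53e-12). Hp, haptoglobin, which binds free haemoglobin, rose by 4.94 (SE 0.88, adjusted p = 0.000257). Fth1, the ferritin heavy chain, rose by 0.89 (SE 0.10, adjusted p = 7.59e-07), and the biliverdin reductases Blvra and Blvrb by 0.84 (SE 0.11, adjusted p = 2.58e-06) and 1.08 (SE 0.12, adjusted p = 3.33e-07). Against PBS, 4 of the 10 were higher with NMN and 5 with NR, beside 5.89% and 8.79% of all genes. Cd163, the haemoglobin receptor of macrophages, stayed under 1 TPM in all libraries. Many cells express these genes, and what part haemoglobin has in their levels was not tested.

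Erythropoietin itself was hardly seen. Epo read 0.69 TPM in 1 NMN library and 0.84 TPM in 1 PBS library, and was listed at 0 in the other libraries of those groups and in all NR and Cisplatin libraries. Of 8 tested genes of oxygen sensing, 3 fell and 2 rose with Cisplatin, beside 18.6% and 40.7% of all genes tested. With both directions together, the number called was near the share of all genes, 59.4%. With median-of-ratios scaling 3 fell and 0 rose, beside 3690 and 3813 of the 12960 genes tested. Vegfa, the vascular growth factor, fell by 1.90 (SE 0.19, limma adjusted p = 1.73e-07), Epas1, which drives Epo, by 1.13 (SE 0.21, adjusted p = 0.000141) and Egln1, an oxygen sensor, by 0.65 (SE 0.12, adjusted p = 0.000195). Hif1a rose by 0.50 (SE 0.13, adjusted p = 0.00236). With a precursor, 0 of the 8 were called against PBS, beside 6.0% of all genes tested with NMN and 10% with NR.

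No tested gene of the platelet, neutrophil and lymphocyte lists fell with Cisplatin, beside 18.6% of all genes tested that fell and 40.7% that rose. With so few genes of these lists tested, the counts are a description only. Of the platelet list 3 genes were tested and 0 were called. Pf4, a platelet chemokine, averaged 2.85 ± 1.65 TPM with NMN, 3.695 ± 0.798 with NR, 6.03 ± 7.61 with Cisplatin and 1.835 ± 1.82 with PBS. Of 5 tested neutrophil genes 1 rose, Lcn2, which injured tubule cells also make, and S100a8, abundant in neutrophils, averaged 4.11 ± 4.38 TPM with Cisplatin and 2.17 ± 1.55 TPM with PBS. Of 3 tested lymphocyte genes, Ccl5 rose by 1.44 (SE 0.31, limma adjusted p = 0.000574). Cd79a was higher by 0.76 (SE 0.18), but it reached 1 TPM only in the Cisplatin libraries, at 1.02 to 1.5 TPM. In every other library it read at most 0.48 TPM. It thus met the minimum level only through the group where it was high, and its call is not counted. The platelet list summed to between 10.02 and 17.1 TPM with NMN, 12.3 and 20.6 with NR, 9.58 and 27.2 with Cisplatin and 8.54 and 15.4 with PBS, with 7 of its 12 genes under 1 TPM in all 16 libraries.

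**Figure D5:**
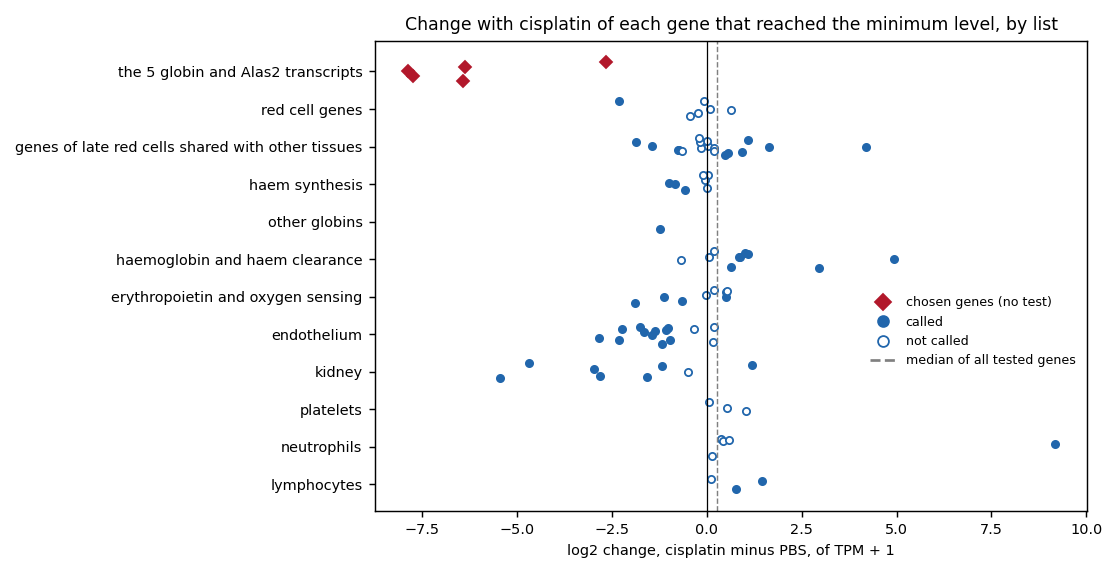
Change with Cisplatin against PBS, as a log2 difference of TPM + 1, of each gene that reached the minimum level, by list. Filled circles passed the limma threshold, open circles did not, diamonds are the 5 chosen genes, which were not tested here, and the dashed line is the median of all genes tested, 0.27. The 4 globin genes lie between -7.89 and -6.38, below every gene of the lists drawn.

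The genes whose levels ran closest to the 5 were found from deviations from the group means of log2(TPM + 1), as a description. For Hbb-bs over all 16 libraries they were Zfp74 (r = 0.902), Dgcr8 (r = 0.887), Pard3b (r = 0.883), Ddr2 (r = 0.883) and Pcca (r = 0.881). For Alas2 they were Ppp2r1a (r = 0.887), Glt8d1 (r = 0.866), Itfg2 (r = 0.861), Hspa1a (r = 0.859) and Miox (r = 0.845). The lists depended on the libraries: over the 12 without the Cisplatin group, the nearest genes to Hbb-bs were Dbp (r = 0.983), Myl9 (r = 0.975), Ccl19 (r = 0.973), Msra (r = 0.970) and Ogn (r = 0.970), and those to Alas2 were Evl (r = 0.944), Ncf4 (r = 0.935), Tnc (r = 0.928), Ms4a7 (r = 0.926) and Tbc1d4 (r = 0.919). Neither gene shared a neighbour between both sets. All points share the libraries and their scaling.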

How the data were processed

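Whole mouse kidney RNA was measured by RNA-seq in 16 libraries, 4 in each of 4 groups taken from the sample titles. The authors deposited TPM values with 2 decimals for 23982 entries. The submitters' processing notes name STAR 2.4.1d, HTSeq 0.6.1, DESeq2 1.10.1 and Trim Galore, and the builds mm10 and GRCm38. The sources used here give neither their roles nor the annotation, gene lengths or strand setting. Because TPM fixes the total of a library, other values go up when abundant transcripts go down, and depth is lost.

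Entries sharing a symbol (94) were summed, which left 23935 symbols. The 12960 genes that reached 1 TPM in 4 or more libraries entered 1 limma model (limma 3.58.1, statmod 1.5.0, R 4.3.3) of log2(TPM + 1) with 4 group means, 12 residual degrees of freedom, trend and robust moderation, and Benjamini-Hochberg adjustment over all genes tested. "Rose", "fell" and "called" mean an adjusted p under 0.05. The 5 genes and all lists were chosen with earlier results of these data known. Named beside the 5 were, of each list, up to 4 called genes with the smallest adjusted p and any defining gene at or near 0, the 5 nearest genes to Hbb-bs and to Alas2, and Epo. S100a8, Pf4, Cd163, Alas1, Klf1, Hp, Mb, Hbq1b and Hba-x with Hbb-y and Hbb-bh1 were named as parts of their lists after their values were seen. Some genes of the red cell and haem synthesis lists are not reported here and were left out of their counts. Lists are described by counts and medians, with no set test. The fit was tested on simulated data.

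Alternatives were median-of-ratios scaling, removal of the 13 mitochondrially encoded mRNAs, 0.1 as pseudocount, no minimum or 5 TPM, moderation without trend and robust, only the groups compared, a replicate block, summed globin copies, and leaving out each library. A fit without NR libraries 3 and 4 and nearest genes without the Cisplatin group were chosen after seeing the data. Motifs and positions came from RefSeq tables of GRCm38.p6, and coding sequences from the longest open reading frame of GENCODE vM21 transcripts, aligned with Biopython 1.88. The symbol Mfsd7b stands for Flvcr1. Python 3.11.15 with pandas 2.3.3, numpy 2.4.6 and matplotlib 3.10.9 made the figures.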

Additional observations from a re-analysis of the deposited data

Results flagged for a closer look

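Among the 5 genes and some of the list genes, 37 genes in 4 groups gave 148 sets of 4 libraries. Of these sets, 10 held a library far from the others by Dixon's criterion for 4 values. Chance flags about 1 in 20 such sets. Of the 5 genes, 1 set was flagged: Hbb-bs in Cisplatin library 3 read 11.1 TPM, the highest of its group. The other flagged values were as follows. In Cisplatin library 1, the endothelial genes Emcn and Plvap were highest at 13 and 21.66 TPM, and Epas1 was highest at 16.19 TPM. In Cisplatin library 2, Slc4a1 was highest at 1.42 TPM and Slc25a37, a mitochondrial iron importer, was lowest at 16.32 TPM. In NR library 2, Lcn2 was highest at 495.87 TPM. In PBS libraries, Slc4a1 was highest at 17.0 TPM in library 4, Hp was highest at 4.79 TPM in library 2, and Cd79a was lowest at 0.17 TPM in library 3.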

How the results depend on the processing

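The 5 genes kept the direction of their change in Cisplatin against PBS, NMN against Cisplatin and NR against Cisplatin under every alternative, and 0 of the 5 were called in NMN against PBS, NR against PBS or NMN against NR under any. Their adjusted p over the alternatives ran from 0.282 to 0.993 for NMN against PBS and from 0.127 to 0.955 for NR against PBS.

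The median change of the 5 genes, -6.42 for Cisplatin against PBS, 5.96 for NMN against Cisplatin and 5.87 for NR against Cisplatin, became -8.35, 7.89 and 7.80 with a pseudocount of 0.1, and -7.05, 6.50 and 6.42 with the globin copies summed. Leaving out each library in turn gave -6.62 to -6.23, 5.75 to 6.20 and 5.70 to 6.11. The count of red cell genes called for Cisplatin against PBS was 2 in place of 1 with median-of-ratios scaling and with mitochondrially encoded mRNAs removed, and 1 to 2 with a library left out. For NMN against Cisplatin it was likewise 2 in place of 1 under both scalings, and 1 with any library left out. For NR against Cisplatin it was 1 in place of 2 with a minimum of 5 TPM, with no minimum, with only the groups compared and without NR libraries 3 and 4, and 1 to 2 with a library left out. With a minimum of 5 TPM, Klf1, at most 4.21 TPM in any library, did not enter the test. The cause of the other shifts was not tested.

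Small differences changed sign when a library was left out: Alas2 in NMN against PBS ran from -0.09 to 0.35, and in NMN against NR Hba-a1 ran from -0.13 to 0.29, Hba-a2 from -0.11 to 0.25, Hbb-bs from -0.12 to 0.26 and Hbb-bt from -0.20 to 0.35. Without PBS library 1, PBS library 4 or NMN library 2, Alas2 in NMN against PBS was -0.0479, -0.0918 and -0.0405. In NMN against NR, without NMN library 2, Hba-a1 was -0.13, Hba-a2 -0.10, Hbb-bs -0.06 and Hbb-bt -0.13, and without NR library 1 they were -0.08, -0.11, -0.12 and -0.20. Without NMN library 4, Hbb-bt was -0.04. Without NR libraries 3 and 4, NR against PBS was -0.56 for Hba-a1 and -0.08 for Alas2.

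With the replicate number as a block, 0 of the 5 genes were called against PBS (for Hba-a1 in NR against PBS the adjusted p was 0.295), and the red cell counts were 1, 1 and 2 in the comparisons with Cisplatin. Same-numbered libraries deviated together only weakly, at r from 0.07 to 0.23 between NMN and NR, 0.05 to 0.29 between NMN and PBS and 0.05 to 0.27 between NR and PBS, and at -0.13 to 0.11 with the Cisplatin libraries, so the numbers were not taken as pairs. Every NMN library correlated best with the NR library of its own number, 4 of 4, a hint from the data and not from the design. The count was 3 of 4 for NMN with PBS, 2 of 4 for NR with PBS and 0 of 4 for Cisplatin with PBS. The globin genes ran more alike by number. Library 2 was the highest and library 1 the lowest of the NMN, NR and PBS groups for Hba-a1, Hba-a2 and Hbb-bs. The block fit includes the Cisplatin libraries, which did not follow this order, and does not settle a pairing. For each globin gene, every NMN and NR library read below the PBS library of its number. A paired contrast without the Cisplatin libraries was not tested.

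Over all genes, median-of-ratios scaling moved the share of higher among called genes to 50.8% in place of 68.6% for Cisplatin against PBS, and to 68.6% in place of 87.9% for NR against PBS. Depth is unknown, so values of a few TPM in Cisplatin libraries carry an unknown counting error.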
